A study of Arabidopsis thaliana with 35 samples.

Results

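The SWEET genes encode membrane proteins that let sucrose or hexoses pass along their gradient. The genes described here are 10 of the 17 members of the family in Arabidopsis, taken by gene identifier from tables of 32833 genes. They are SWEET1 (AT1G21460), SWEET2 (AT3G14770), SWEET4 (AT3G28007), SWEET11 (AT3G48740), SWEET12 (AT5G23660), SWEET13 (AT5G50800), SWEET14 (AT4G25010), SWEET15 (AT5G13170), SWEET16 (AT3G16690) and SWEET17 (AT4G15920). SWEET1 was included because it was higher in the uninduced er line, so it was chosen by its measured level in er XVE:ER and WT before induction, which is given as a description with no test. The other 9 were included by family.

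RNA was sequenced from 7-d-old seedlings of 3 lines, each uninduced and after 3 h or 8 h on 17-β estradiol (written as 5 mM in labels and methods). The line er XVE:ER is mutant for ER, the receptor kinase ERECTA, and carries an ER cDNA behind a promoter that the estradiol-activated regulator XVE switches on. XVE:EPFL4 carries the EPFL4 peptide gene behind the same kind of promoter in wild type, and WT carries no XVE construct but was placed on estradiol in the same way. XVE itself is driven by the 35S promoter, which is active in most cells, so that induction is not confined to the cells where ER or EPFL4 normally act. There were 4 libraries per group, except er XVE:ER at 3 h, which had 3 (numbered 1, 2 and 4). Each library came from 5 to 6 pooled seedlings. The sample labels give 0 h for the uninduced seedlings whereas the methods give 3 h on mock plates, so that the time of day of the harvests is not known. Time on estradiol and time of day cannot be told apart here.

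SWEET proteins fall into 4 clades. Clade I (SWEET1 and SWEET2) and clade II (SWEET4) carry mainly hexoses, with SWEET1 at the plasma membrane and SWEET2 at the vacuole membrane of root cells, where it limits the loss of sugar to the soil. Clade III (SWEET11 to SWEET15) carries mainly sucrose. SWEET11 and SWEET12 release sucrose from phloem parenchyma of leaves for loading into the sieve tubes, SWEET13 and SWEET14 also carry gibberellins, and SWEET15 (also named SAG29) is known from senescing leaves and from seeds. Clade IV (SWEET16 and SWEET17) acts at the vacuole membrane, where SWEET17 is a fructose carrier.

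Total counts ran from 18224765 to 25089853 per library (median 20657563). Values are CPM, the counts of a gene relative to the library's total, scaled by TMM over all 35 libraries. ER stood at 44.5 to 68.5 CPM in uninduced er XVE:ER, 267.8 to 454.2 at 3 h and 724.5 to 1552 at 8 h, against 68.1 to 104.8 in all WT libraries, and its counts combine transgene and native gene. EPFL4 stood at 1.36 to 3.40 CPM in its uninduced line, 981.4 to 1724 at 3 h and 810 to 2972 at 8 h, against at most 1.21 in the other lines. No marker of leaf, root, phloem, xylem or stomata was at 0 throughout, as for whole seedlings. Of the 35 libraries, 4 correlated best across genes with a library of another group: er XVE:ER uninduced replicate 4, WT 3 h replicate 4, er XVE:ER 8 h replicate 1 and XVE:EPFL4 8 h replicate 1. The 8 h groups were spread as widely as these, and in WT at 8 h replicates 1 and 4 were alike and differed from 2 and 3. In er XVE:ER uninduced replicate 4, 7 of the 10 SWEET genes lay below and 1 above the other 3 libraries, and 9 of 10 clock genes lay outside them (CCA1 at 60.2 CPM, the others at 268 to 298). In WT 3 h replicate 4, 5 SWEET genes lay below and 3 above the others, and all 10 clock genes lay outside them (CCA1 at 43.4 CPM, the others at 144 to 181). Of the 10 SWEET genes, 6 lay outside the other libraries of the group in er XVE:ER 8 h replicate 1 and 8 in XVE:EPFL4 8 h replicate 1, with 6 and 7 of 10 clock genes. Any 1 of 4 libraries is often the highest or lowest for a gene by chance. The share over all genes was not counted, so such counts alone set no library apart. Below, the libraries that stood apart are the uninduced er XVE:ER and the WT 3 h one. For the results they moved most, values without both are also given. Without er XVE:ER 8 h replicate 1 no member lost a call. Without XVE:EPFL4 8 h replicate 1, calls were lost for SWEET16 in WT at 8 h against uninduced, SWEET13 in XVE:EPFL4 at 8 h against 3 h and SWEET11 in XVE:EPFL4 against WT at 3 h. Nothing states that replicates came from separate days, so p-values measure the spread between these libraries.

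Compared per length (RPKM, CPM per kilobase of exon), SWEET11 was the most abundant SWEET transcript in all 9 groups. In uninduced WT it averaged 112 ± 14.1 RPKM (SD, n = 4), and its range did not overlap that of SWEET2 (34.1 ± 9.17), which came next. SWEET2 and SWEET17 (29.6 ± 1.71) overlapped. SWEET15 (20.1 ± 1.09), SWEET1 (16.6 ± 1.99), SWEET12 (16 ± 1.74) and SWEET16 (15 ± 1.29) followed, each overlapping the next. SWEET4 (0.394 ± 0.175), SWEET13 (0.336 ± 0.0672) and SWEET14 (0.108 ± 0.0849) were close to the limit of detection, with 4 to 13, 6 to 12 and 1 to 6 counts per library. By 8 h the order in WT had changed. SWEET12 averaged 57.5 ± 11.5 RPKM and stood second, and SWEET15 averaged 0.317 ± 0.101 RPKM and stood ninth, with a range that overlapped SWEET14 (0.198 ± 0.106). The summed level of the 10 genes moved less: it averaged 346 ± 34.4 CPM in uninduced WT, 304 ± 29.5 at 3 h and 308 ± 22.3 at 8 h.

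**Figure D1:**
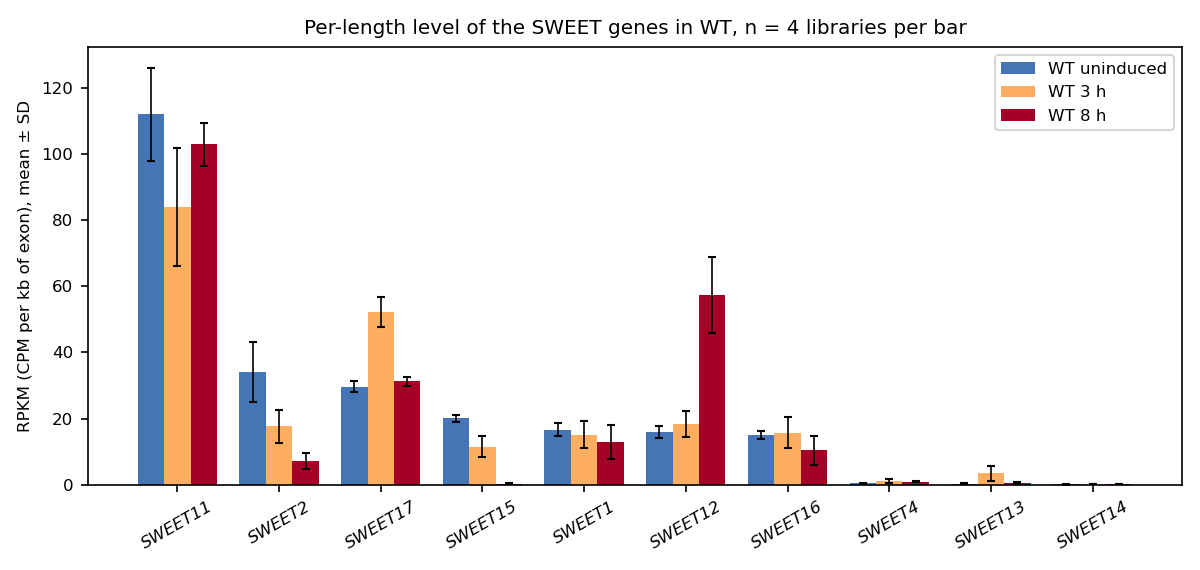
Level per kilobase of exon (RPKM) of each SWEET gene in WT uninduced, at 3 h and at 8 h; bars are means and error bars SD of 4 libraries. SWEET11 is highest at each time, SWEET12 is second at 8 h, and SWEET15 averages 0.317 RPKM at 8 h, against 20.1 uninduced.

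All 10 genes lie on the reverse strand (TAIR10.1 annotation), and their coding regions are split over 6 exons each. SWEET11 and SWEET12 share 80.4% of their coding bases and SWEET13 and SWEET14 share 77.5%, with identical stretches of at most 29 and 24 bases, far shorter than the 150-base reads. The remaining pairs share less, down to 44.4%. No member overlaps another gene except SWEET1.

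SWEET2, SWEET11, SWEET12, SWEET13, SWEET15 and SWEET17 changed with time in every line, WT included, in at least 1 of 3 comparisons of times. Genes were called at an adjusted p under 0.05 in edgeR's quasi-likelihood test over 20926 genes. At 3 h against uninduced, 5 of 9 members tested were called in WT (3 higher, 2 lower), where 20.8% of all genes were called. In er XVE:ER 3 of 9 were called (2 higher, 1 lower; all genes 13.6%), and in XVE:EPFL4 5 of 10 (2 higher, 3 lower; all genes 14.2%). At 8 h against uninduced, 5 of 9 were called in WT (2 higher, 3 lower; all genes 34.5%), 3 of 9 in er XVE:ER (1 higher, 2 lower; all genes 31.4%) and 3 of 10 in XVE:EPFL4 (1 higher, 2 lower; all genes 37.1%), shares near those of all genes in the last 2. At 8 h against 3 h, 6 of 10 were called in each line, with 1 higher in WT (all genes 23.5%), 2 higher in er XVE:ER (all genes 21.7%) and 2 higher in XVE:EPFL4 (all genes 24.3%). The members' median log2 fold change against uninduced was 0.17 in er XVE:ER, −0.20 in XVE:EPFL4 and 0.19 in WT at 3 h, and −0.25, −0.17 and 0.08 at 8 h in the same order of lines. At 8 h against 3 h it was −0.60, −0.16 and −0.41, with most of the calls lower. Beside these medians, members moved in both directions. These comparisons share their uninduced libraries within a line. All 10 members passed the filter on low counts.

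**Figure D2:**
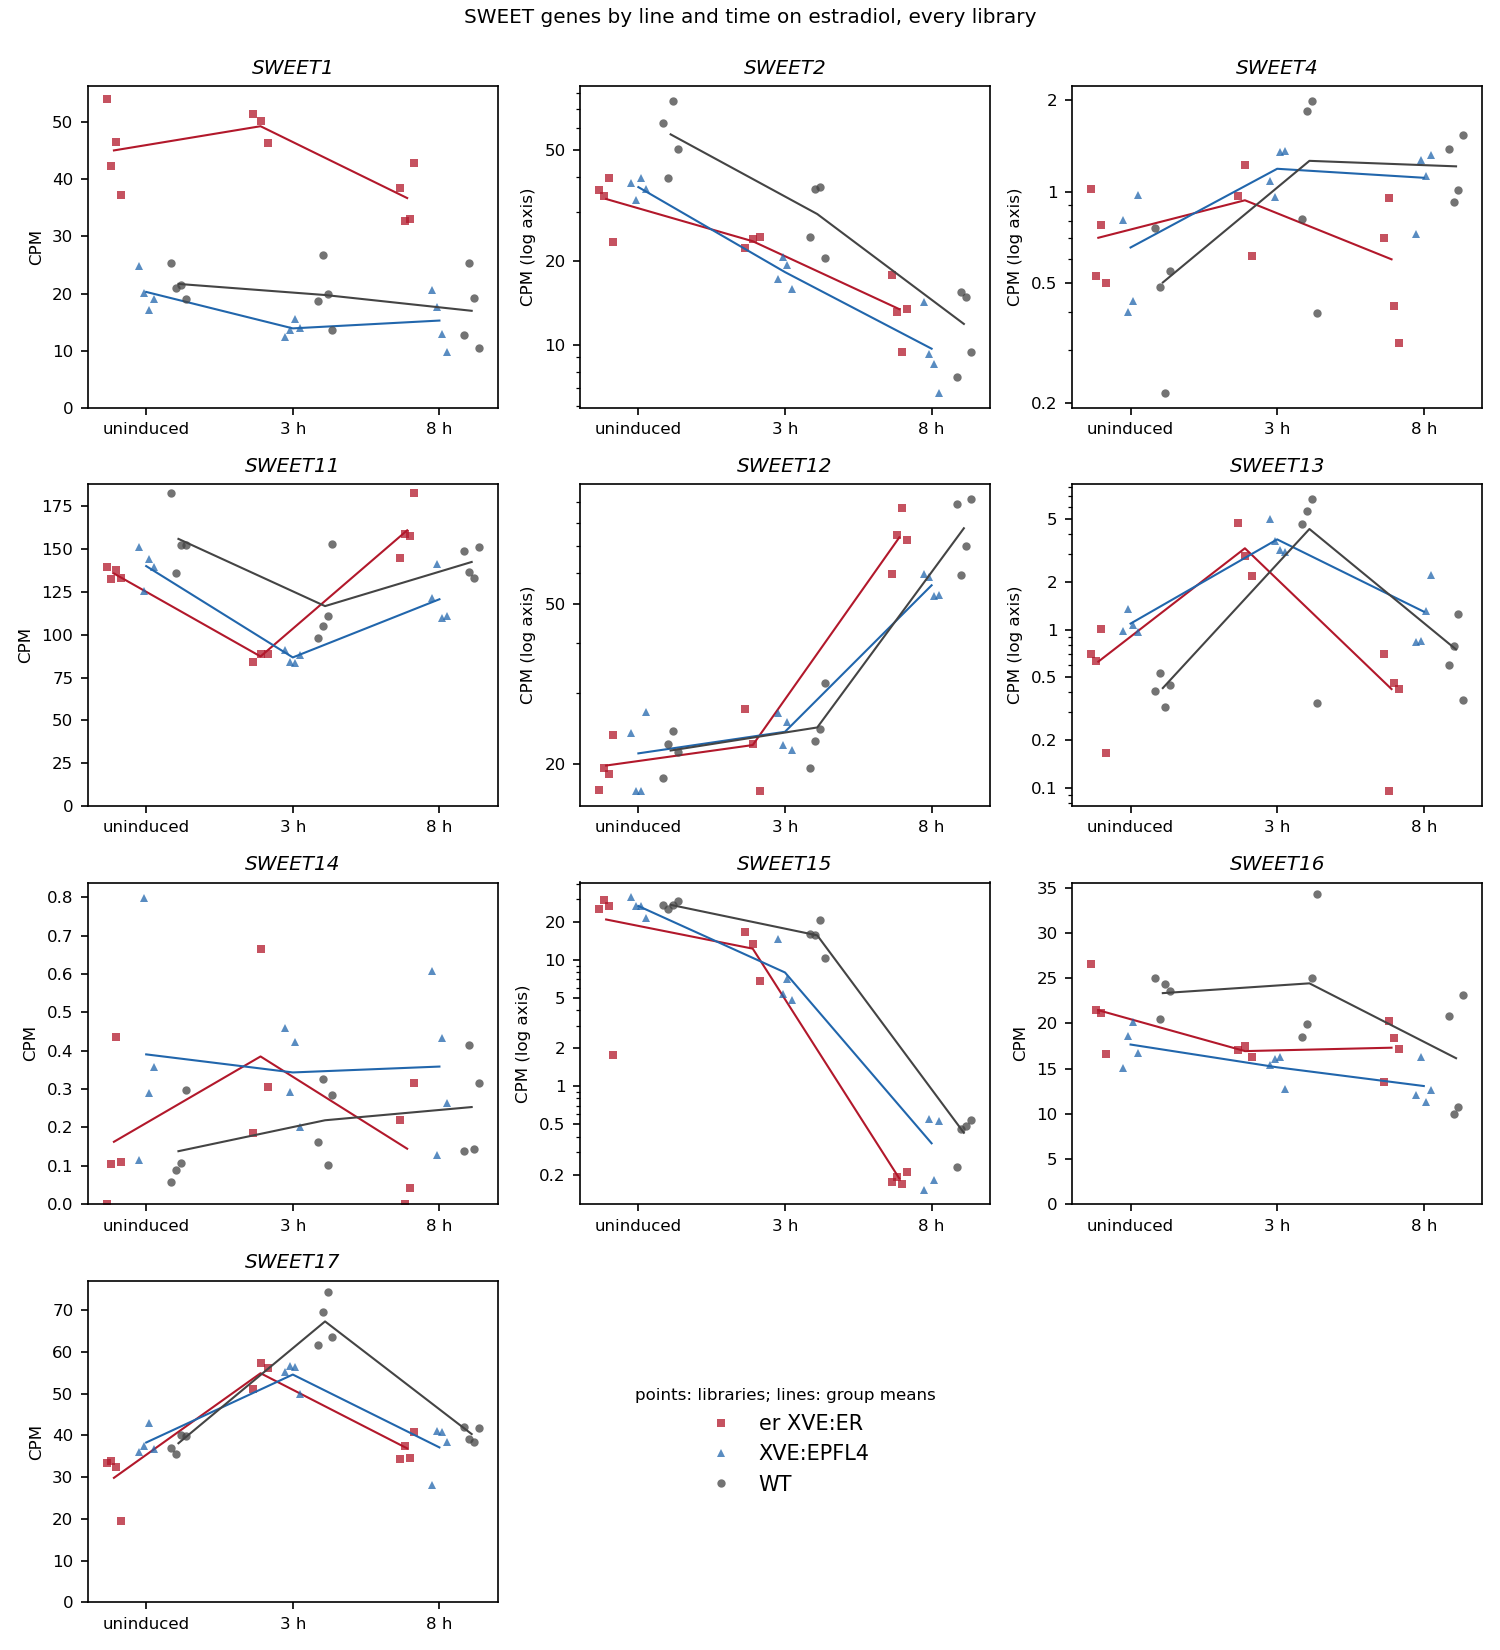
CPM of each SWEET gene in every library, by time on estradiol and line; points are libraries and lines join group means, with log axes where marked. SWEET12 and SWEET15 move apart by 8 h in all 3 lines, SWEET13 and SWEET17 peak at 3 h, and SWEET1 stands apart in er XVE:ER.

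The sucrose carriers SWEET12 and SWEET15 moved in opposite directions between 3 h and 8 h. In WT, SWEET12 had 18.5, 22.3, 24.1 and 21.4 CPM uninduced, 19.5, 22.8, 24.4 and 31.9 CPM at 3 h, and 88.9, 59.2, 69.9 and 91.7 CPM at 8 h. Values in er XVE:ER were 17.2, 19.6, 18.9 and 23.6 CPM uninduced, 27.4, 22.4 and 17.1 CPM at 3 h, and 59.6, 74.7, 87.1 and 72.5 CPM at 8 h. The XVE:EPFL4 libraries had 23.9, 17.1, 17.1 and 26.9 CPM uninduced, 26.7, 22.3, 25.5 and 21.6 CPM at 3 h, and 59.4, 58.3, 52.5 and 52.8 CPM at 8 h. Every 8 h library was above every earlier library of its line, whereas uninduced and 3 h libraries overlapped. Against uninduced, the log2 fold change at 8 h was 1.89 in er XVE:ER (SE 0.17, adjusted p = 3.28e-10), 1.39 in XVE:EPFL4 (SE 0.17, adjusted p = 9.04e-08) and 1.84 in WT (SE 0.17, adjusted p = 4.10e-10), while SWEET12 was not called at 3 h in any line. In whole seedlings, more cells of a type and more RNA per cell cannot be told apart. The summed level of 4 phloem markers was 127 to 212 CPM in WT at 8 h, against 204.7 to 239.9 CPM in uninduced WT. Of these, only APL was called (lower) and none was at 0, and their part in the SWEET12 result was not tested.

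SWEET15 was among the well-expressed sucrose carriers in uninduced seedlings and lay at 0.152 to 0.552 CPM in all 8 h libraries. WT libraries had 27.1, 25.4, 27.2 and 29.0 CPM uninduced, 16.0, 15.6, 20.5 and 10.3 CPM at 3 h, and 0.230, 0.461, 0.482 and 0.541 CPM at 8 h. The er XVE:ER libraries had 25.3, 29.7, 26.5 and 1.77 CPM uninduced, 16.7, 13.3 and 6.77 CPM at 3 h, and 0.176, 0.190, 0.168 and 0.211 CPM at 8 h. In XVE:EPFL4 it had 31.3, 26.8, 26.7 and 21.6 CPM uninduced, 14.6, 5.33, 7.04 and 4.80 CPM at 3 h, and 0.152, 0.552, 0.181 and 0.529 CPM at 8 h. Only the fourth uninduced er XVE:ER library, 1 of those that stood apart, was low before estradiol, and even this one was above all 8 h libraries. At 8 h the log2 fold change against uninduced was −6.77 in er XVE:ER (SE 0.65, adjusted p = 1.44e-09), −6.25 in XVE:EPFL4 (SE 0.59, adjusted p = 7.08e-10) and −5.97 in WT (SE 0.58, adjusted p = 1.38e-09). These folds rest on 4 to 13 counts per library at 8 h and 32 to 583 uninduced. At 3 h SWEET15 had fallen in XVE:EPFL4 (log2 fold change −1.74, SE 0.42, adjusted p = 0.00484). It was not called at 3 h in er XVE:ER (−0.77, adjusted p = 0.276) or WT (−0.80, adjusted p = 0.175). All WT libraries at 3 h were nonetheless below all uninduced ones. With only the groups compared, the WT fall was called (−0.80, adjusted p = 0.00801). Without er XVE:ER uninduced replicate 4 the 3 h change was called in er XVE:ER (−1.15, adjusted p = 0.0079) and in WT (−0.80, adjusted p = 0.0234). Without both libraries that stood apart, it was called in er XVE:ER (−1.15, adjusted p = 0.00505) and not in WT (−0.65, adjusted p = 0.0767), and the 8 h value in er XVE:ER was −7.15.

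**Figure D3:**
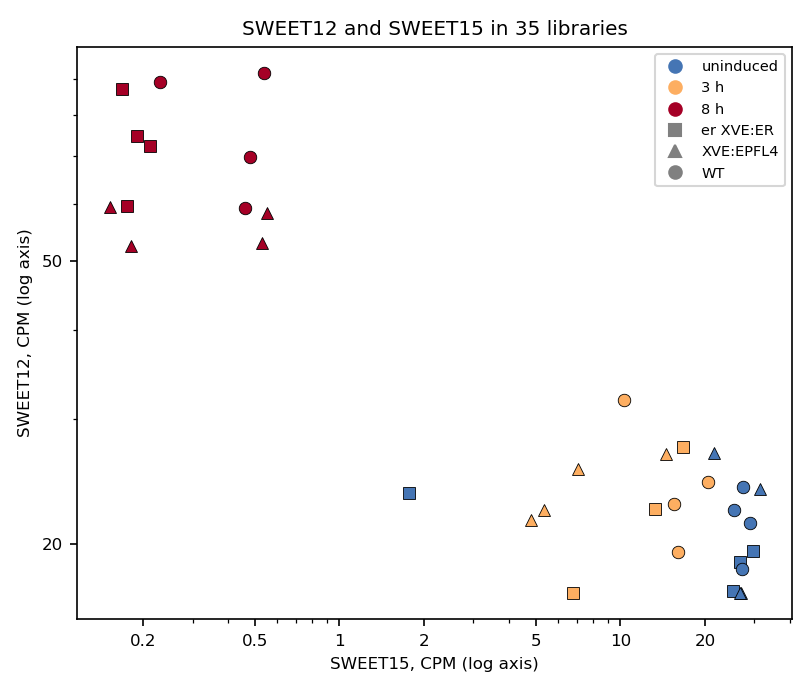
SWEET12 CPM against SWEET15 CPM in 35 libraries, both on log axes; colour gives the time on estradiol and shape the line. The 8 h libraries of all lines form 1 cluster (SWEET12 at 52.5 to 91.7 and SWEET15 at 0.152 to 0.552), apart from the uninduced and 3 h libraries.

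Over the 35 libraries the log2 CPM of SWEET12 and SWEET15 had a Pearson r of −0.914, and over the 9 group means −0.968. After the group means were taken out r was −0.145, so the relation lies between groups and describes their shared time course. The 250 bases upstream of the annotated start of these genes are shown because the transcripts diverged the most. They were searched on both strands for 5 motifs: the evening element AAAATATCT and the CCA1-binding site AAAAATCT, which clock MYB factors bind, the G-box CACGTG, the ABRE core ACGTG (which lies within the G-box) and the TATA box TATAAA. Capitals mark matches, and SWEET12 (chr5:7973996-7974245, reverse strand) holds none.
SWEET12: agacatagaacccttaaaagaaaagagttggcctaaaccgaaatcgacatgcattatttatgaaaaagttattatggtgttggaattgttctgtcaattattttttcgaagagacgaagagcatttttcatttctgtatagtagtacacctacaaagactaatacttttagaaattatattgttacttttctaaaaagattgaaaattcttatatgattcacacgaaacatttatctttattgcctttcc
SWEET15: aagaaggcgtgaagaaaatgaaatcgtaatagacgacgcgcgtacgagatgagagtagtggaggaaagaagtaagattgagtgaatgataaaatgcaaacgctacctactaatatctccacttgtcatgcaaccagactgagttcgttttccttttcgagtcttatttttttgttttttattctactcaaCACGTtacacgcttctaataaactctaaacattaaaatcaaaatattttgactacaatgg
SWEET15 (chr5:4183355-4183604, reverse strand) holds 1 ABRE core, read on the other strand 60 to 56 bases before the start. The ABRE core is in 22.9% of 27443 upstream windows of protein-coding genes and in 3 of the 10 members (SWEET4, SWEET13 and SWEET15). The evening element is in 0 of the 10 (all windows 2.36%), the CCA1-binding site in 1 (SWEET1; all windows 6.69%), the G-box in 1 (SWEET4; all windows 6.49%) and the TATA box in 6 (all windows 47.3%).

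SWEET11, the close paralog of SWEET12, dipped at 3 h instead. The WT values were 182.9, 136.2, 152.6 and 152.1 CPM uninduced, 97.9, 105.1, 110.7 and 153.1 CPM at 3 h, and 148.7, 136.8, 133 and 151.4 CPM at 8 h. In er XVE:ER it had 139.8, 132.3, 137.8 and 133 CPM uninduced, 84.3, 88.6 and 89.0 CPM at 3 h, and 144.6, 159, 157.6 and 182.6 CPM at 8 h. The XVE:EPFL4 libraries had 151.1, 125.6, 144.2 and 139.4 CPM uninduced, 91.0, 84.2, 83.6 and 88.2 CPM at 3 h, and 121.6, 141, 109.5 and 110.7 CPM at 8 h. All 3 h libraries were the lowest of their line except WT replicate 4, which stood among the uninduced ones. The fall at 3 h was called in each line, at −0.64 in er XVE:ER (SE 0.12, adjusted p = 0.000477), −0.69 in XVE:EPFL4 (SE 0.11, adjusted p = 4.59e-05) and −0.42 in WT (SE 0.11, adjusted p = 0.00616). The WT value was −0.58 (adjusted p = 4.57e-05) without both libraries that stood apart, and the call was lost when only the groups compared were fitted (−0.42, adjusted p = 0.0653). The recovery at 8 h against 3 h was called in er XVE:ER (0.88, adjusted p = 2.60e-06) and XVE:EPFL4 (0.48, adjusted p = 0.00185). In WT it was 0.29 (adjusted p = 0.0533) with WT 3 h replicate 4 and 0.45 (adjusted p = 0.00096) without it, and was called in 17 of 35 fits that left out 1 library. At 8 h SWEET11 did not differ from uninduced by a call in any line.

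SWEET13 peaked at 3 h, from a very low level. In WT it had 0.407, 0.529, 0.324 and 0.447 CPM uninduced, 4.67, 5.58, 6.71 and 0.342 CPM at 3 h, and 0.597, 0.784, 1.25 and 0.361 CPM at 8 h. Values in er XVE:ER were 0.697, 0.629, 1.02 and 0.166 CPM uninduced, 4.70, 2.92 and 2.18 CPM at 3 h, and 0.703, 0.0949, 0.462 and 0.422 CPM at 8 h. In XVE:EPFL4 it had 0.981, 1.35, 1.07 and 0.971 CPM uninduced, 5.00, 3.62, 3.16 and 3.08 CPM at 3 h, and 0.838, 0.849, 1.302 and 2.20 CPM at 8 h. The 3 h libraries were above all others of their line except WT replicate 4, which was at the uninduced level. The rise at 3 h was 2.35 in er XVE:ER (SE 0.56, adjusted p = 0.00457), 1.76 in XVE:EPFL4 (SE 0.50, adjusted p = 0.0156) and 3.32 in WT (SE 0.56, adjusted p = 6.61e-05), and without both libraries that stood apart 2.05 in er XVE:ER and 3.70 in WT. The later fall at 8 h against 3 h was called in all lines, at −2.93 in er XVE:ER (adjusted p = 0.000444), −1.52 in XVE:EPFL4 (adjusted p = 0.0209) and −2.53 in WT (adjusted p = 0.000486; −2.91 without both). Counts ran from 2 to 131, and the XVE:EPFL4 calls were lost without 1 of that line's libraries: 3 h replicate 1 for the rise (1.58, adjusted p = 0.0546), and 3 h replicate 1 (−1.33, adjusted p = 0.0677), 8 h replicate 1 (−1.35, adjusted p = 0.0678) or 8 h replicate 2 (−1.37, adjusted p = 0.0735) for the fall.

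SWEET14, the closest paralog of SWEET13, had 0 to 16 counts per library (0 to 0.799 CPM) and was called in no comparison. Its 3 h log2 fold changes carried an SE of 0.77 in er XVE:ER, 0.64 in XVE:EPFL4 and 0.81 in WT, so that only large changes could have been called at this depth. The regions upstream of this pair are shown because they share more sequence than any other pair of members. Capitals mark bases that lie in a match of at least 10 bases to any place in the other window, and overlapping matches join into 1 stretch.
SWEET13: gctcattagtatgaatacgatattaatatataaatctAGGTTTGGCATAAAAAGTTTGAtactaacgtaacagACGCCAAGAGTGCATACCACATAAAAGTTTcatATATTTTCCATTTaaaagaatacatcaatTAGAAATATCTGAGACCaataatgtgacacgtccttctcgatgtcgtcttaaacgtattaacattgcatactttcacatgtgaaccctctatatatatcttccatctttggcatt
SWEET14: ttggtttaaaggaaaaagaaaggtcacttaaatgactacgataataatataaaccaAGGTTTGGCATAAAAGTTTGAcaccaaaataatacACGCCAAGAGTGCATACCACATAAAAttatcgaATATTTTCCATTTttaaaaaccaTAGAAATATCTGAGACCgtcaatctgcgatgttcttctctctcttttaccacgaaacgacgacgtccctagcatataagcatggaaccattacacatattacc
SWEET13 (chr5:20667313-20667562, reverse strand) and SWEET14 (chr4:12856542-12856791, reverse strand) have 4 such stretches each, covering 82 bases in SWEET13 and 77 in SWEET14, so that paired stretches need not be equal in length. The longest run of bases identical in both is 26 bases, against 7 to 12 in the other 44 pairs.

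The vacuolar fructose carrier SWEET17 also peaked at 3 h, at a level far above SWEET13. WT libraries had 37.1, 35.6, 40.2 and 39.8 CPM uninduced, 61.7, 69.7, 74.3 and 63.6 CPM at 3 h, and 42.0, 39.1, 38.5 and 41.8 CPM at 8 h. The er XVE:ER libraries had 33.5, 34.0, 32.5 and 19.5 CPM uninduced, 51.2, 57.3 and 56.2 CPM at 3 h, and 34.5, 37.5, 34.7 and 40.9 CPM at 8 h. The XVE:EPFL4 libraries had 36, 37.4, 43.0 and 36.8 CPM uninduced, 55.3, 56.7, 56.4 and 50 CPM at 3 h, and 28.2, 41.0, 40.9 and 38.5 CPM at 8 h. In each line all 3 h libraries were above all others, WT replicate 4 included. The rise at 3 h was 0.88 in er XVE:ER (SE 0.13, adjusted p = 2.80e-05), 0.51 in XVE:EPFL4 (SE 0.12, adjusted p = 0.00428) and 0.82 in WT (SE 0.12, adjusted p = 1.34e-05). The fall at 8 h against 3 h was called in er XVE:ER (−0.57, adjusted p = 0.00207), XVE:EPFL4 (−0.56, adjusted p = 0.00128) and WT (−0.74, adjusted p = 3.52e-05). SWEET17 was called at 8 h against uninduced in no line.

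SWEET16, the other clade IV gene, changed little. It ranged from 9.96 to 34.4 CPM over the 35 libraries, and was called in WT, lower at 8 h against uninduced (−0.53, SE 0.21, adjusted p = 0.0465) and against 3 h (−0.60, SE 0.21, adjusted p = 0.0351). The WT 8 h libraries split, with 20.8 and 23.2 CPM in replicates 1 and 4 and 9.96 and 10.7 CPM in replicates 2 and 3, against 20.5 to 25.0 CPM uninduced. With only the groups compared, both calls were lost (adjusted p = 0.162 and 0.278), whereas SWEET16 was then called lower in XVE:EPFL4 at 8 h against uninduced (−0.44, adjusted p = 0.0334). The first call was also lost with DESeq2 size factors (adjusted p = 0.0502), with no filter on low counts (adjusted p = 0.0628) and in 26 of 35 fits that left out 1 library. The other was lost without WT 3 h replicate 3 (−0.58, adjusted p = 0.0716) or 4 (−0.39, adjusted p = 0.19) and without WT 8 h replicate 2 (−0.42, adjusted p = 0.157) or 3 (−0.44, adjusted p = 0.145).

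SWEET2, the vacuolar hexose carrier, declined stepwise. The WT values were 62.2, 39.6, 75.0 and 50.2 CPM uninduced, 24.3, 36.1, 36.7 and 20.5 CPM at 3 h, and 7.67, 15.5, 14.9 and 9.42 CPM at 8 h. In er XVE:ER it had 36.0, 34.1, 39.6 and 23.4 CPM uninduced, 22.2, 23.9 and 24.3 CPM at 3 h, and 17.7, 13.1, 9.37 and 13.5 CPM at 8 h. In XVE:EPFL4 it had 38.0, 33.0, 39.7 and 36.3 CPM uninduced, 17.2, 20.6, 19.2 and 15.8 CPM at 3 h, and 14.2, 9.21, 8.50 and 6.70 CPM at 8 h. The 3 times did not overlap in WT and XVE:EPFL4, and in er XVE:ER the low uninduced replicate 4 lay within the 3 h range. At 8 h against uninduced the fall was −1.31 in er XVE:ER (SE 0.24, adjusted p = 6.79e-05), −1.92 in XVE:EPFL4 (SE 0.24, adjusted p = 1.90e-07) and −2.26 in WT (SE 0.24, adjusted p = 9.16e-09). At 3 h it was called in XVE:EPFL4 (−1.01, adjusted p = 0.00291) and WT (−0.95, adjusted p = 0.0034), while the er XVE:ER value was −0.50 (adjusted p = 0.188), or −0.64 (adjusted p = 0.0694) without both libraries that stood apart. The fall at 8 h against 3 h was called in all lines, but in er XVE:ER (−0.81, adjusted p = 0.0198) it was lost without 3 h replicate 2 (−0.80, adjusted p = 0.0583), 3 h replicate 4 (−0.78, adjusted p = 0.0584) or 8 h replicate 3 (−0.67, adjusted p = 0.0593). Of 4 root markers, COBL9 and CASP2 were lower and PYK10 was higher in WT at 8 h against uninduced, with a summed level of 3180 to 4426 CPM at 8 h and 1724 to 2589 CPM uninduced. The sum was almost all PYK10 (mean 3760 CPM at 8 h and 2217 CPM uninduced). Each of the others averaged at most 19.7 CPM in these groups. No root marker was at 0, and their part in the SWEET2 result was not tested.

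SWEET4, of clade II, had 4 to 39 counts per library. In WT it had 0.755, 0.485, 0.216 and 0.547 CPM uninduced, 0.814, 1.84, 2.00 and 0.398 CPM at 3 h, and 1.38, 0.922, 1.01 and 1.53 CPM at 8 h, so that 3 h replicate 4 was again at the uninduced level. It was called higher in WT at 3 h (1.34, SE 0.42, adjusted p = 0.0226) and 8 h (1.27, SE 0.42, adjusted p = 0.0182). In XVE:EPFL4 the values were 0.86 (adjusted p = 0.166) and 0.76 (adjusted p = 0.142), and SWEET4 was not called in er XVE:ER. Without both libraries that stood apart the 3 h value was 1.63 (adjusted p = 0.0026). The 3 h call was lost with only the groups compared (1.34, adjusted p = 0.0895) and without WT uninduced replicate 2 or 3 or WT 3 h replicate 2 or 3 (adjusted p = 0.0519, 0.0855, 0.0903 and 0.118), and the 8 h call without WT uninduced replicate 3 (1.03, adjusted p = 0.0747) or WT 8 h replicate 4 (1.15, adjusted p = 0.0509).

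**Figure D4:**
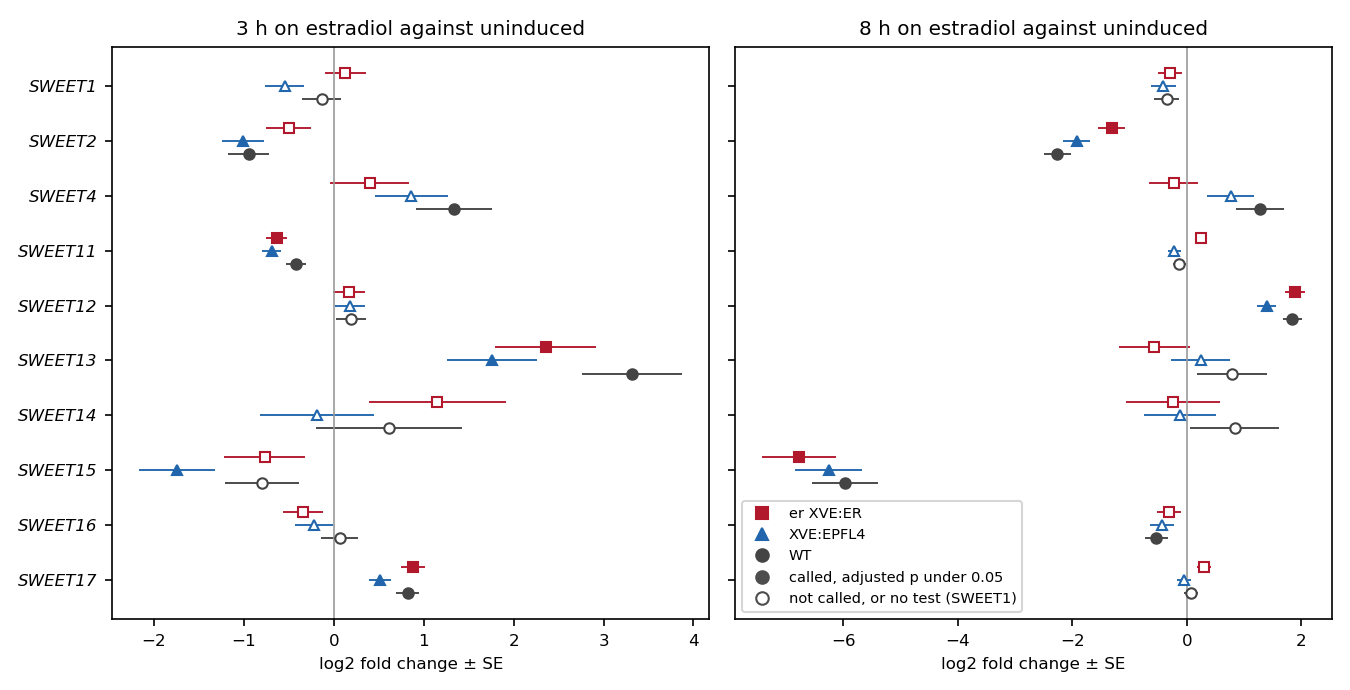
Log2 fold change ± SE of each SWEET gene at 3 h (left) and 8 h (right) against uninduced in each line, from 1 edgeR fit; filled symbols are called and open ones are not called, or had no test (SWEET1 in er XVE:ER and WT). SWEET15 at 8 h runs from −6.77 to −5.97, SWEET12 from 1.39 to 1.89, and SWEET13 at 3 h from 1.76 to 3.32.

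Whether a line responded differently from WT was tested as the difference of the responses. No member was called in edgeR, at 3 h or 8 h, in either line. For er XVE:ER minus WT, 0.00478% of all genes were called at 3 h and 0.0191% at 8 h. For XVE:EPFL4 minus WT these shares were 0.0765% and 0.478%, or 16 and 100 genes, numbers that ran from 16 to 419 and from 32 to 298 over the alternatives. At an unadjusted p under 0.05 there were 0 of 9 members in er XVE:ER at 3 h, 3 at 8 h (SWEET2, SWEET4 and SWEET11), and in XVE:EPFL4 1 at 3 h (SWEET13) and 0 at 8 h. Of 20926 genes, 841, 1540, 1696 and 2186 had such a p, in the same order. DESeq2 called 0 members in each. The SWEET2 response at 8 h was 0.94 higher on the log2 scale in er XVE:ER than in WT (SE 0.33, adjusted p = 0.533), that of SWEET4 was lower in er XVE:ER (−1.504, SE 0.60, adjusted p = 0.602), and that of SWEET13 at 3 h in XVE:EPFL4 was −1.55 (SE 0.75, adjusted p = 0.602), or −1.93 (adjusted p = 0.0655) without both libraries that stood apart. For SWEET12 at 8 h the XVE:EPFL4 response minus the WT response was −0.45 (SE 0.23, adjusted p = 0.511). These standard errors leave room for differences of more than 1 log2 unit in the low genes.

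Lines were also compared at the same time. For XVE:EPFL4 against WT, edgeR and DESeq2 each called 0 of 9 members in uninduced seedlings (all genes 1.89% in edgeR). At an unadjusted edgeR p under 0.05 there were 2 members (SWEET2 and SWEET13) and 2999 of 20926 genes. SWEET13 averaged 1.09 CPM in uninduced XVE:EPFL4 and 0.427 CPM in uninduced WT, and SWEET16 averaged 17.7 and 23.4 CPM, both without overlap. How many of all genes had non-overlapping ranges was not counted. Without both libraries that stood apart, SWEET13 was at 1.33 (adjusted p = 0.0584). With only the groups compared, some members were called, beside 1965 of 19795 genes. At 8 h both tools called 0 of 10 (all genes 0.344% in edgeR). An unadjusted edgeR p under 0.05 was then found for 2 members and 2877 of 20926 genes. SWEET12 at 8 h stood at 52.5 to 59.4 CPM in XVE:EPFL4 and 59.2 to 91.7 CPM in WT (log2 fold change −0.47, SE 0.16, adjusted p = 0.193). At 3 h 6 of 10 had an unadjusted edgeR p under 0.05, all lower in XVE:EPFL4, as did 3389 of 20926 genes in either direction. DESeq2 called 2 members (SWEET11 and SWEET16) and 669 of 19601 genes. SWEET16 stood at 12.8 to 16.3 CPM in XVE:EPFL4 and 18.5 to 34.4 CPM in WT (−0.69, SE 0.21, adjusted p = 0.0856), and SWEET17 at 50 to 56.7 CPM in XVE:EPFL4 and 61.7 to 74.3 CPM in WT (−0.30, SE 0.12, adjusted p = 0.199), both without overlap. Of the 10, edgeR called SWEET11 (1 gene; all genes 1.46%), at 83.6 to 91.0 CPM in XVE:EPFL4 and 97.9 to 153.1 CPM in WT (−0.43, SE 0.11, adjusted p = 0.0427). This call rests on WT 3 h replicate 4 and others: it was −0.27 (adjusted p = 0.0904) without both libraries that stood apart, and was lost with only the groups compared and in 17 of 35 fits that left out 1 library, XVE:EPFL4 8 h replicate 1 among them. Without both libraries, SWEET2 (−0.83, adjusted p = 0.0263), SWEET15 (−1.12, adjusted p = 0.0116) and SWEET17 (−0.33, adjusted p = 0.0412) were called lower in XVE:EPFL4. Of all genes, 1353 of 20900 were then called, in either direction. In er XVE:ER the 3 h level of SWEET11 was as low, at 84.3 to 89.0 CPM, but was not called against WT (−0.42, adjusted p = 0.262).

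SWEET1 was the only member called in er XVE:ER against WT on estradiol. Values in er XVE:ER were 54.1, 42.4, 46.5 and 37.2 CPM uninduced, 51.4, 50.2 and 46.4 CPM at 3 h, and 38.4, 32.7, 33 and 42.8 CPM at 8 h. WT libraries had 25.3, 20.9, 21.4 and 19.1 CPM uninduced, 18.7, 26.7, 19.96 and 13.6 CPM at 3 h, and 12.8, 25.4, 19.2 and 10.5 CPM at 8 h. Every er XVE:ER library was above every WT library at each time, and the XVE:EPFL4 libraries (9.74 to 24.8 CPM) lay in the WT range or below it. In uninduced seedlings, the comparison by which the gene was chosen, the log2 fold change was 1.06 (SE 0.21, no test). In contrasts of libraries that the choice did not use it was 1.32 at 3 h (SE 0.23, adjusted p = 0.00331; 1.18 without both libraries that stood apart). At 8 h it was 1.11 (SE 0.22, adjusted p = 0.00824). The uninduced libraries still entered the estimate of spread behind these p-values. At each time 1 of 10 members was called, beside 0.143% of all genes at 3 h and 0.344% at 8 h. That member was SWEET1, chosen for its level in this line, so the counts show no excess for the family. For SWEET1 the exact two-sided permutation p was 0.0571 at 3 h and 0.0286 at 8 h, in each case the smallest that the numbers of libraries allow.

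The SWEET1 calls depended on the shared fit. With only the groups compared, the libraries that chose SWEET1 were out of the fit. The values were then 1.33 at 3 h (adjusted p = 0.0765) and 1.12 at 8 h (adjusted p = 0.453), neither called. At 8 h the call was also lost without WT 8 h replicate 1 (1.00, adjusted p = 0.0611) and with all libraries numbered 4 left out (0.86, adjusted p = 0.0788). Between 3 h and 8 h on estradiol, while ER counts in er XVE:ER went up further, SWEET1 was not called: at 8 h against 3 h it was −0.43 in er XVE:ER (SE 0.23, adjusted p = 0.176) and −0.22 in WT (SE 0.22, adjusted p = 0.523). All 8 h libraries of er XVE:ER were nonetheless below all of its 3 h libraries (exact permutation p = 0.0571, the smallest possible). The WT libraries overlapped (exact permutation p = 0.429). A part of ER in this was not tested. SWEET1 was not called within XVE:EPFL4 at either time, with 12.4, 13.7, 15.6 and 13.9 CPM at 3 h against 24.8, 20.2, 17.2 and 19 CPM uninduced (−0.54, SE 0.22, adjusted p = 0.0932), although it was called at 3 h with only the groups compared and at 8 h without XVE:EPFL4 8 h replicate 1.

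The gene whose levels were most like those of SWEET1 over the 35 libraries was TMM (Pearson r 0.906), a receptor protein that acts with ER family kinases in stomatal patterning. This order includes the libraries by which SWEET1 was chosen, and any gene that marks the er XVE:ER line scores high in it. TMM was followed by AT5G39920 (r 0.854), MYB60 (r 0.833), a guard cell factor, CPL3 (r 0.813) and ICE1 (r 0.797), a factor of the stomatal lineage. For TMM, r was 0.893 over the 27 libraries that the choice of SWEET1 did not use, 0.588 over the 24 libraries without the er XVE:ER line and 0.669 after the group means were taken out. The last 2 values were not the highest. ICE1 had 0.607 without the er XVE:ER line, and SWEET2 had 0.721 after the group means were taken out. For AT5G39920, which averaged 0 CPM in each group outside the er XVE:ER line, r after the group means were taken out was −0.074. TMM averaged 52.6 CPM in er XVE:ER and 17.2 CPM in WT uninduced, 54.2 and 16.1 CPM at 3 h, and 48.6 and 12.8 CPM at 8 h, and being picked for this likeness it was given no test. The other stomatal markers listed, EPF1 and FAMA, were not called between these lines. Their summed level was 24.1 to 30.4 CPM in er XVE:ER and 17.1 to 20 CPM in WT uninduced, 28.2 to 31.3 and 17.1 to 24 CPM at 3 h, and 21.8 to 34.3 and 17.2 to 23.4 CPM at 8 h, overlapping only at 8 h. The sum was mostly FAMA (mean 22.1 CPM in uninduced er XVE:ER, with EPF1 at 3.90 CPM). EPF1 overlapped between the lines only in uninduced seedlings, at 3.11 to 4.21 CPM in er XVE:ER and 1.89 to 4.65 CPM in WT. FAMA overlapped only at 8 h. Neither marker was at 0. Their part in the SWEET1 result was not tested.

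**Figure D5:**
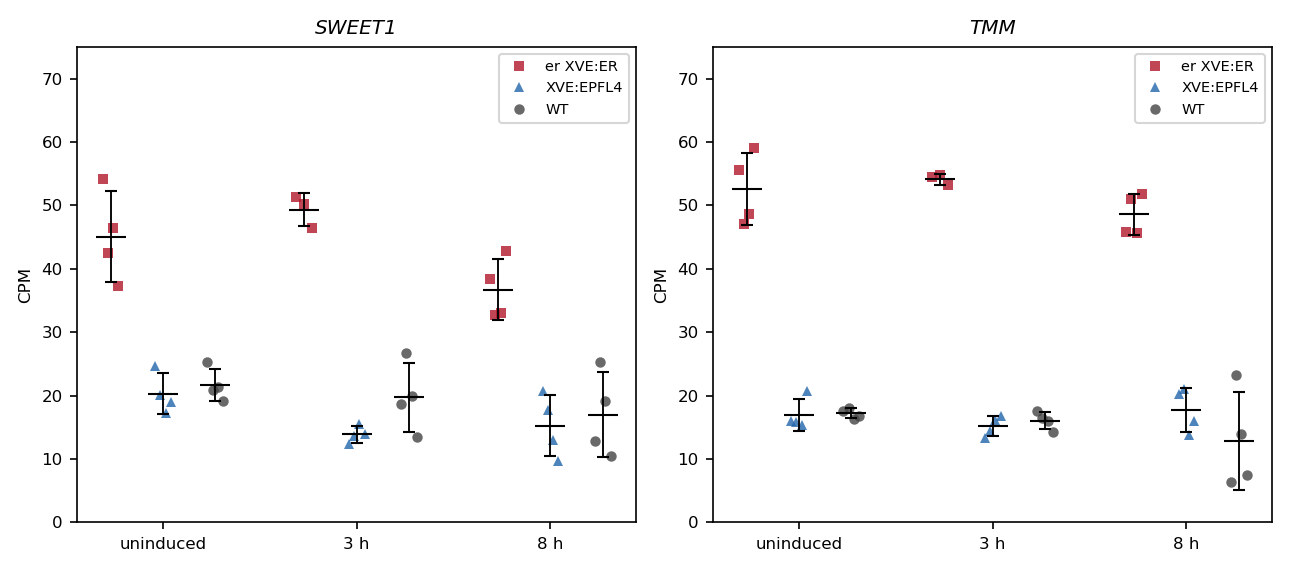
SWEET1 (left) and TMM (right) in CPM in each library by line and time; bars are mean ± SD. All er XVE:ER libraries (SWEET1 at 32.7 to 54.1 CPM) lie above all XVE:EPFL4 and WT libraries (9.74 to 26.7 CPM).

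SWEET1 (chromosome 1, 7511750 to 7513481) overlaps AT1G21450 on the opposite strand by 52 bases. The strand setting of the counting is not stated, so reads from the shared bases cannot be told apart. AT1G21450 stood at 52.5 to 55.5 CPM in er XVE:ER and 42.5 to 49.3 CPM in WT at 3 h, and at 28.9 to 35.6 CPM in er XVE:ER and 21.6 to 42.7 CPM in WT at 8 h, so that the lines were apart at 3 h and overlapped at 8 h. Its part in the SWEET1 result was not tested. The region upstream of SWEET1 (chr1:7513482-7513731, reverse strand) is shown because it alone among the members holds a CCA1-binding site, 197 to 190 bases before the start. It also has a TATA box on the other strand.
SWEET1: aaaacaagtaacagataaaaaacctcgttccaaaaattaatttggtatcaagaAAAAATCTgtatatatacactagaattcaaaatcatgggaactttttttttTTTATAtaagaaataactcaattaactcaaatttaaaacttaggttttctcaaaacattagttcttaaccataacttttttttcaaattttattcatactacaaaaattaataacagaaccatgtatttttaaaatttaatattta

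Among the other 9 members, only SWEET17 had non-overlapping ranges in uninduced seedlings, at 19.5 to 34.0 CPM in er XVE:ER and 35.6 to 40.2 CPM in WT. Being part of the comparison that chose SWEET1, this is given with no test. How many of all genes had non-overlapping ranges was not counted, so no result for the members is drawn. SWEET17 was not called against WT at 3 h or 8 h. Its ranges also did not overlap at 3 h, nor did those of SWEET11 and SWEET16, and at 8 h those of SWEET15 did not, all without a call.

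The 7 remaining SWEET genes were near or at 0. SWEET6 and SWEET9 had no count in any of the 35 libraries, SWEET3, SWEET7 and SWEET8 had at most 8 counts, and only SWEET5 and SWEET10 passed the filter. Neither was called in any comparison. SWEET10, a clade III gene near SWEET13 on chromosome 5, had 13 to 29 counts in WT at 8 h and 3 to 10 in uninduced WT.

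Among proton-coupled sugar carriers and sucrose-cleaving enzymes in WT, the share of genes called was near that of all genes (20.8% at 3 h and 34.5% at 8 h), so the genes are named without a result for the groups. Of 5 sucrose symporters, 1 rose and 1 fell at 3 h (SUC1 at 0.43, adjusted p = 0.0414, and SUC5 at −1.22, adjusted p = 0.0113), and SUC5 alone was called at 8 h (−1.63, adjusted p = 0.000498). Of 6 hexose symporters, 1 rose at 3 h (STP3, 0.67, adjusted p = 0.0152) and 2 rose at 8 h, STP3 by the most (2.20, adjusted p = 2.67e-10). Of 6 carriers of the vacuole membrane, 2 rose at 3 h and 3 at 8 h, TST1 by the most (0.79, adjusted p = 0.00359, and 1.33, adjusted p = 2.34e-06). Of 6 invertases and sucrose synthases tested, the vacuolar invertase gene BFRUCT4 fell at 3 h (−1.44, adjusted p = 0.00162) and 8 h (−2.06, adjusted p = 1.03e-05), when SUS3 was also lower. Within er XVE:ER and XVE:EPFL4 at 8 h, STP3, TST1, SUC5 and BFRUCT4 were called in the same directions. Of 10 clock genes, 5 were higher and 4 lower at 8 h in each of the 3 lines. The time course of the SWEET genes thus ran beside a shift of clock genes in seedlings with and without a transgene, whose part in it was not tested.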

How the data were processed

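RNA of 35 libraries in 9 groups was sequenced as 150-base paired-end reads. The authors mapped them with STAR 2.7.11a to TAIR10 (EnsemblPlants release 58) and deposited unnormalized counts of reads per gene. The strand setting and the handling of duplicates are not given in the sources used here. Groups were taken from the sample labels.

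Analysis of the deposited counts used edgeR 4.0.16 (R 4.3.3): filterByExpr by group (minimum count 10, minimum total 15), which kept 20926 of 32833 genes, TMM, and 1 quasi-likelihood fit over all libraries with group as the only term. The p-values were adjusted by Benjamini-Hochberg over all genes kept. As the SE of a log2 fold change, its size over the root of the test's F was taken. RPKM is CPM per kilobase of exon in the NCBI annotation of TAIR10.1, which matched 32548 gene identifiers. For single members, an exact permutation test (two-sided) of log2 CPM means was added (prior count 2). Upstream sequences are from RefSeq, TAIR10.1. Scripts were tested on simulated counts.

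The members and the lists of companion genes and markers were chosen with earlier results of these data known. The genes named are all members, the called gene of each companion list with the largest rise and the largest fall in WT at each time, and the 5 genes most correlated with SWEET1. SWEET1 was tested only in contrasts without uninduced WT or uninduced er XVE:ER libraries. Those libraries still entered the shared estimate of spread, except with only the groups compared. The alternatives were DESeq2 1.42.0, its size factors in edgeR, no filter on low counts, only the groups compared, the replicate number as a block, the libraries numbered 4 left out and each library left out in turn. Leaving out both libraries that stood apart was added after the data were seen.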

Additional observations from a re-analysis of the deposited data

Results flagged for a closer look

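A library far from the other 3 of its group was found in 2 of 80 sets of 4 libraries examined over the 10 SWEET genes. Chance gives about 1 in 20, so this is no excess. In both sets the library was er XVE:ER uninduced replicate 4, which also stood apart in its clock genes. SWEET15 was at 1.77 CPM there, against 25.2 to 29.7 CPM in the other uninduced er XVE:ER libraries. SWEET17 was at 19.47 CPM there, against 32.5 to 34 CPM in the others.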

How the results depend on the processing

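Of 45 changes of SWEET genes called, 38 were called under every alternative that kept all libraries and 34 under every alternative, and none changed direction. With only the groups compared, the number of SWEET genes called was 0 for er XVE:ER against WT at 3 h and 8 h and for XVE:EPFL4 against WT at 3 h, and 3 for XVE:EPFL4 against WT uninduced. Of all genes, 10 of 19943, 5 of 19791, 1213 of 19863 and 1965 of 19795 were called in these fits, in the same order. With the libraries numbered 4 left out, the number of SWEET genes called was 0 for er XVE:ER against WT at 8 h (all genes 51 of 21001). For XVE:EPFL4 against WT at 3 h, 2 genes were called by DESeq2, 0 with no filter on low counts, 0 with the replicate block and 3 without both libraries that stood apart. Of all genes, 669 of 19601, 180 of 26906, 230 of 20926 and 1353 of 20900 were called there, in the same order. Leaving out 1 library gave 3 to 5 genes for WT 8 h against uninduced, 0 to 1 for er XVE:ER against WT at 8 h and 0 to 2 for XVE:EPFL4 against WT at 3 h. The cause was not tested. Replicate numbers did not pair the libraries in general: 136 correlations of same-numbered libraries' deviations ran from −0.470 to 0.445 (median 0.034). The highest was number 4 of er XVE:ER uninduced with number 4 of WT 3 h, the libraries that stood apart. With er XVE:ER 3 h, number 4 of these groups gave 0.265 and 0.245. Other values for number 4 went down to −0.233 (er XVE:ER 8 h with XVE:EPFL4 8 h). The replicate block changed 1 other call, SWEET16 in WT at 8 h against uninduced (−0.54, adjusted p = 0.0543). Over all genes, XVE:EPFL4 against WT at 3 h had 306 calls (180 to 1353 over the alternatives), er XVE:ER against WT at 8 h 72 (5 to 241), XVE:EPFL4 against WT at 8 h 72 (1 to 320) and uninduced 396 (327 to 1965), er XVE:ER against WT at 3 h 30 (10 to 64), the responses of XVE:EPFL4 minus WT 16 (16 to 419) at 3 h and 100 (32 to 298) at 8 h, those of er XVE:ER minus WT 1 (1 to 6) and 4 (1 to 15), XVE:EPFL4 3 h against uninduced 2971 (2712 to 6784), er XVE:ER 8 h against uninduced 6578 (3203 to 7459) and WT 8 h against 3 h 4924 (3154 to 5854). Depth limits SWEET4, SWEET13 and SWEET14, and SWEET15 at 8 h.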
